A study of Gossypium hirsutum with 9 samples.

Results

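The genes described here had their lowest transcript level at the middle of 3 glucose concentrations in cultured cotton ovules, and there were 171 of them among 75376 Gohir gene IDs and 80970 rows in all. They were chosen on their levels in these same libraries. Levels are FPKM, read counts divided by gene length and library size, and were averaged for each concentration as log2(FPKM + 0.5). A member had a mean at 150 mM at least 1 log2 unit below the mean at 50 mM and at least 1 below that at 300 mM. Its mean FPKM was at least 2 at 50 or at 300 mM, and each 150 mM library lay below each of the other libraries. The fall to 150 mM and the rise from it are therefore given as descriptions, with no test. The ovules were from upland cotton, Gossypium hirsutum strain TM-1, and were cultured for 5 days on 50, 150 or 300 mM glucose. Each concentration had 3 RNA sequencing libraries, and all groups share the strain, the tissue and the culture time. The labels name no separation of fibre from the rest of the ovule and give no osmotic control, so glucose as a sugar and the osmolarity of the medium cannot be told apart.

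Cotton fibres are seed hairs, each a single very long cell that grows out of the outer layer of the ovule. Ovules in culture form fibres while drawing their carbon from the sugar of the medium, and glucose serves there as fuel, as a building block of the cell wall, as a solute that sets osmotic pressure, and as a signal. Brassinosteroids are steroid hormones of plants that promote cell elongation, fibre elongation included, and the series asks how glucose bears on them. A gene lowest at a middle concentration has a response that a comparison of the outer concentrations alone would not show. The nucleus of upland cotton combines the genomes of an A and a D ancestor, so that many genes are present as an A copy and a D copy. The IDs carry no names or descriptions in the files, and none of the 171 matched the RefSeq gene table for the species (0 matches), so no function is given for any member and no defining marker of the ovule could be checked.

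The libraries held 17803711 to 19140281 recovered reads. Replicate 1 at 300 mM stood apart in the members from the other libraries of its concentration, as given with the results. Whether the 3 libraries at a concentration were grown as independent cultures is not stated in the labels, and the p-values therefore reflect library-to-library spread that could be partly technical. The RNA was extracted from ovules as bulk tissue, and fewer cells of a type and less RNA per cell cannot be told apart.

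At 150 mM the members lost most of their transcripts, and at 300 mM the typical member regained most of what it had lost. Over the 171 members the median of the mean FPKM was 8.09 at 50 mM, 1.98 at 150 mM and 6.31 at 300 mM. On the log2(FPKM + 0.5) scale the fall from 50 to 150 mM had a median of -1.63, with quartiles of -2.13 and -1.28, and reached -4.93. The rise from 150 to 300 mM had a median of 1.32, with quartiles of 1.15 and 1.64, and reached 5.90. The rise was 81.0% of the fall in the median member on this scale. It was 50% to 150% of the fall in 147 members, below 50% in 14 and above 150% in 10. The rule asks for a rise of at least 1 log2 unit, so a large share regained is partly built in. The depth of a trough, the smaller of the 2 differences, had a median of 1.21 and was at least 2 in only 6 of the 171 members. Most members thus lay near the limit of the rule, and a few lay far beyond it.

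Members were found from low to high abundance. The mean FPKM over the 9 libraries ran from 1.05 to 819.6, with a median of 6.48. For the 42453 Gohir IDs with a mean FPKM of at least 2 at 50 or 300 mM the median was 9.53. The 150 mM libraries, where the rule sets members low, enter these means, so the lower median of members is partly built in. The mean over the 9 libraries was under 5 in 79 members, 5 to 20 in 52, 20 to 100 in 33 and above 100 in 7. A mean FPKM of at least 2 was reached at both 50 and 300 mM by 147 members, at 50 mM and not 300 mM by 17, and at 300 mM and not 50 mM by 7. Few troughs reached near-complete silence. The FPKM was under 0.5 in each 150 mM library in 12 members, and none of these 12 had a mean FPKM above 3.33 over the 50 and 300 mM libraries. No member was without reads at 150 mM, and 78 members had at least 100 reads in the 150 mM libraries together, while 15 had fewer than 10.

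**Figure D1:**
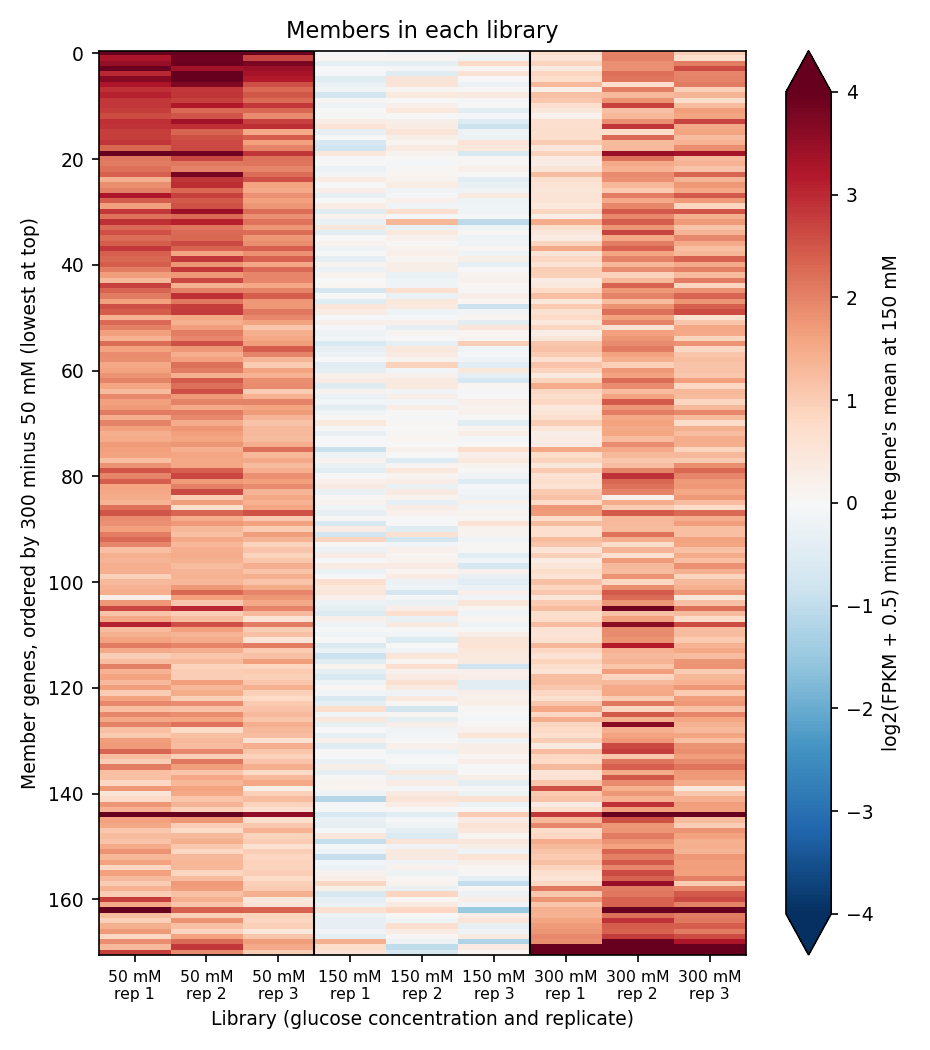
Each row is 1 of the 171 members and each column 1 of the 9 libraries; colour gives log2(FPKM + 0.5) minus the gene's own mean at 150 mM, capped at 4 in either direction. Rows run from the member lowest at 300 relative to 50 mM at the top to the highest at the bottom. The 150 mM columns are pale because each gene is set against its own 150 mM mean. The first 300 mM column is paler than the other 2 in most rows.

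The rise at 300 mM differed in size between the 3 libraries. Relative to each gene's mean at 150 mM, the median level of the members was 0.82 in replicate 1, 1.81 in replicate 2 and 1.53 in replicate 3 at 300 mM, in log2 units. In the 50 mM libraries these medians were 1.72, 1.71 and 1.47. Replicate 1 thus rose least, and in the median member it showed 48.5% of the rise seen in replicates 2 and 3, with quartiles of 34.5% and 69.6%. It was the lowest of the 300 mM libraries in 145 of 171 members (84.8%), against 33.7% of the 42453 Gohir IDs above the same level. Replicate 2 was the highest in 106 members (62.0%), against 29.7%. The median SD of the log2 level within the 300 mM group was 0.61 for members and 0.21 for those Gohir IDs. Within 50 mM it was 0.32 against 0.15, and within 150 mM 0.32 against 0.16. The rule limits how high a 150 mM library and how low a 50 or 300 mM library may lie, so these spreads are descriptions.

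Summed over the members, reads were fewest at 150 mM, and replicate 1 was again the lowest library at 300 mM. The 171 genes took 0.469%, 0.518% and 0.468% of the reads in the 50 mM libraries and 0.120%, 0.126% and 0.139% at 150 mM. At 300 mM they took 0.250% in replicate 1, 0.561% in replicate 2 and 0.391% in replicate 3. Replicate 2 was above each of the 50 mM libraries, and replicates 1 and 3 lay between the 50 and the 150 mM libraries. A single gene, Gohir.A01G189900.v2.1, weighed heavily in these sums, from 14201 of 72639 reads in replicate 3 at 300 mM to 8680 of 22593 in replicate 1 at 150 mM.

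**Figure D2:**
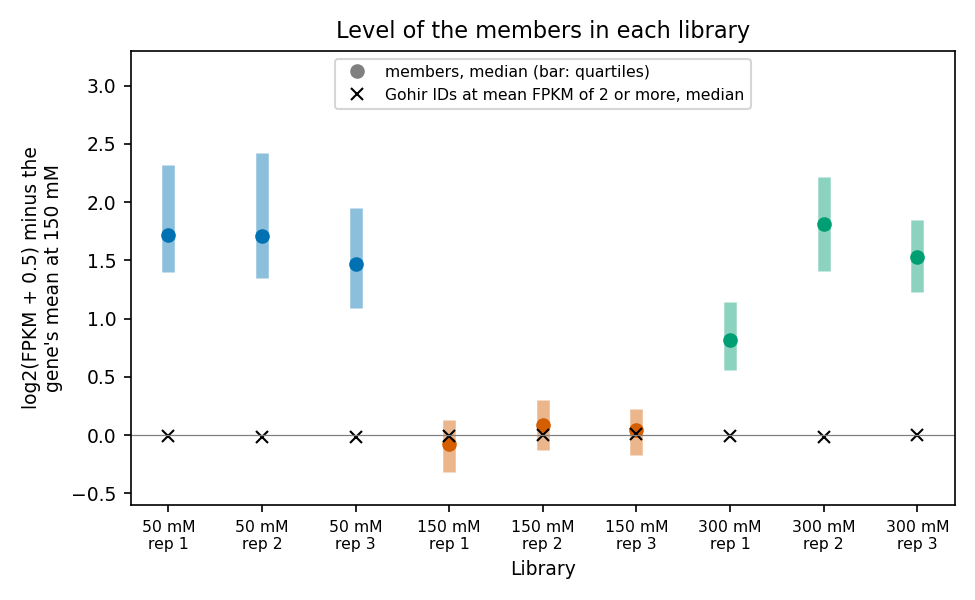
Points are the median over the 171 members of log2(FPKM + 0.5) minus each gene's own mean at 150 mM in each of the 9 libraries, bars span the quartiles, and crosses are the same median over 42453 Gohir IDs. The crosses stay near 0 while the members stand at 0.82 to 1.81 in the 300 mM libraries, lowest in replicate 1.

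The size of the list turned on replicate 1 at 300 mM. Without that library the rule found 474 genes, which included 168 of the 171. Without another single library it found 127 to 321, the highest without replicate 2 at 150 mM. The mirrored rule, a peak at 150 mM with a mean FPKM of at least 2 there, found 534 Gohir IDs with all libraries and 742 without replicate 1 at 300 mM. Among the loci outside the Gohir naming, 2 met the trough rule.

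Because all 9 libraries chose the members, the trough was also looked at in a library that had no part in the choice. With replicate 1 at 50 mM left out, the other 8 libraries chose 163 genes, and the left-out library was above each 150 mM library in 159 of them (97.5%), against 35.6% of Gohir IDs above the same level. For replicates 2 and 3 at 50 mM the shares were 98.8% and 97.3%. Left-out libraries at 150 mM were below each of the other 6 in 158 of 192 genes (82.3%) for replicate 1, 193 of 321 (60.1%) for replicate 2 and 171 of 206 (83.0%) for replicate 3. The share over all Gohir IDs above that level was 12% to 13%. At 300 mM, replicate 2 was above each 150 mM library in 125 of 127 genes (98.4%) and replicate 3 in 151 of 160 (94.4%), against 30.5% and 31.9%. Replicate 1 was the exception, at 227 of 474 genes (47.9%) against 27.7%. The genes chosen without it stood at a median of 0.29 log2 units above their 150 mM mean in that library, and 62 of the 474 (13.1%) by at least 1, against 1.07% of all. These shares are descriptions over genes, which are not replicates, and genes chosen on the rest of a group already differ in that group. The libraries that the left-out library was set against also took part in the choice. A high share is therefore partly built in, and the share over all Gohir IDs is not a like baseline.

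**Figure D3:**
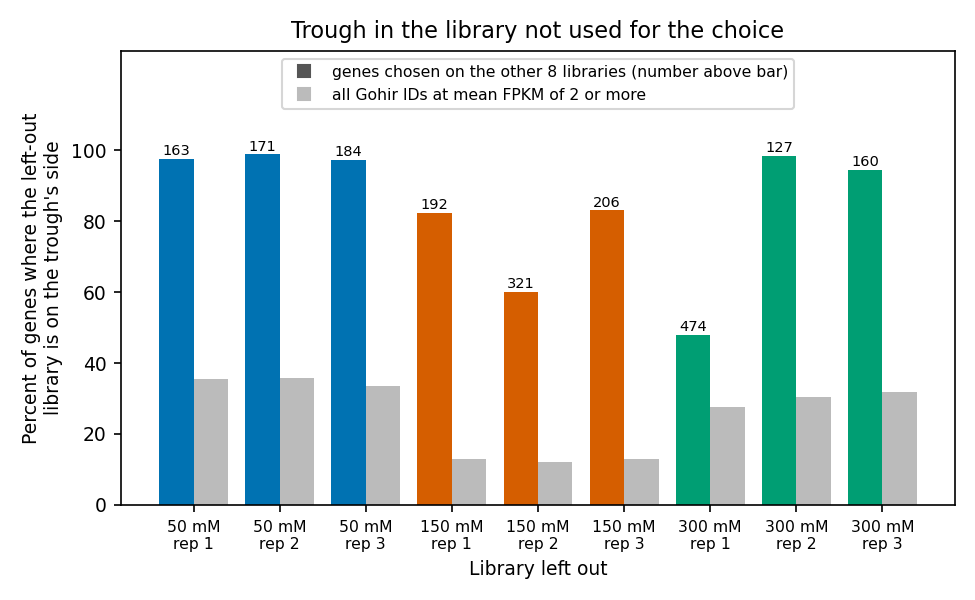
For each library, coloured bars give the percentage of genes chosen on the other 8 libraries in which that library lay on the expected side (below the 50 and 300 mM libraries for 150 mM, above the 150 mM libraries otherwise), with the number chosen above the bar. Grey bars give the percentage over all Gohir IDs above the same level. Replicate 1 at 300 mM has the lowest coloured bar, at 47.9%. The libraries compared against took part in the choice, so high coloured bars are partly built in.

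The deepest trough belonged to an abundant gene of chromosome A10, Gohir.A10G214900.v2.1. Its FPKM was 259, 270.5 and 150.3 at 50 mM, 8.06, 9.13 and 25.8 at 150 mM, and 91.2, 448 and 512 at 300 mM. The level fell by 4.09 log2 units and rose by 4.42. Replicate 1 at 300 mM lay below the 50 mM libraries and the other libraries at 300 mM above them, so the 2 outer groups overlapped in rank.

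Next in depth were genes of lower abundance. For Gohir.D05G352600.v2.1 the FPKM was 37.0, 9.94 and 9.61 at 50 mM, 2.61, 3.03 and 0.212 at 150 mM, and 4.83, 119 and 32.8 at 300 mM. The 300 mM libraries of this gene ranged more widely than its 50 and 150 mM means differ from each other. Gohir.D13G196400.v2.1 had 79.7, 63.1 and 30.9 at 50 mM, 5.44, 4.28 and 2.33 at 150 mM, and 7.69, 47.6 and 42.8 at 300 mM. For Gohir.A03G017240.v2.1 the values were 14.5, 18.5 and 8.63 at 50 mM, 1.29, 2.31 and 2.03 at 150 mM, and 5.05, 33.9 and 10.3 at 300 mM. In each of these 3 genes replicate 1 was the lowest of the 300 mM libraries.

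In 2 of the 6 deepest members the trough rested on very few reads. Gohir.A09G173800.v2.1, with a coding length of 237 bases, had 1 read in the 150 mM libraries together, 40 at 50 mM and 48 at 300 mM. Its read rate at 50 mM was 41.1 times that at 150 mM, and its 95% interval for counting error, from an exact conditional binomial, ran from 6.96 to 1660. The rate at 300 mM was 46.3 times that at 150 mM, with an interval of 7.93 to 1870. Gohir.A05G261300.v2.1, of 258 bases, had 2 reads at 150 mM, 43 at 50 mM and 36 at 300 mM. Its ratios were 22.1 (5.75 to 188) and 17.4 (4.47 to 149). The rule chose both genes for this fall and rise, so the intervals give only the counting error of a described ratio and are no test. In all, 4 members had 1 to 3 reads at 150 mM.

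**Figure D4:**
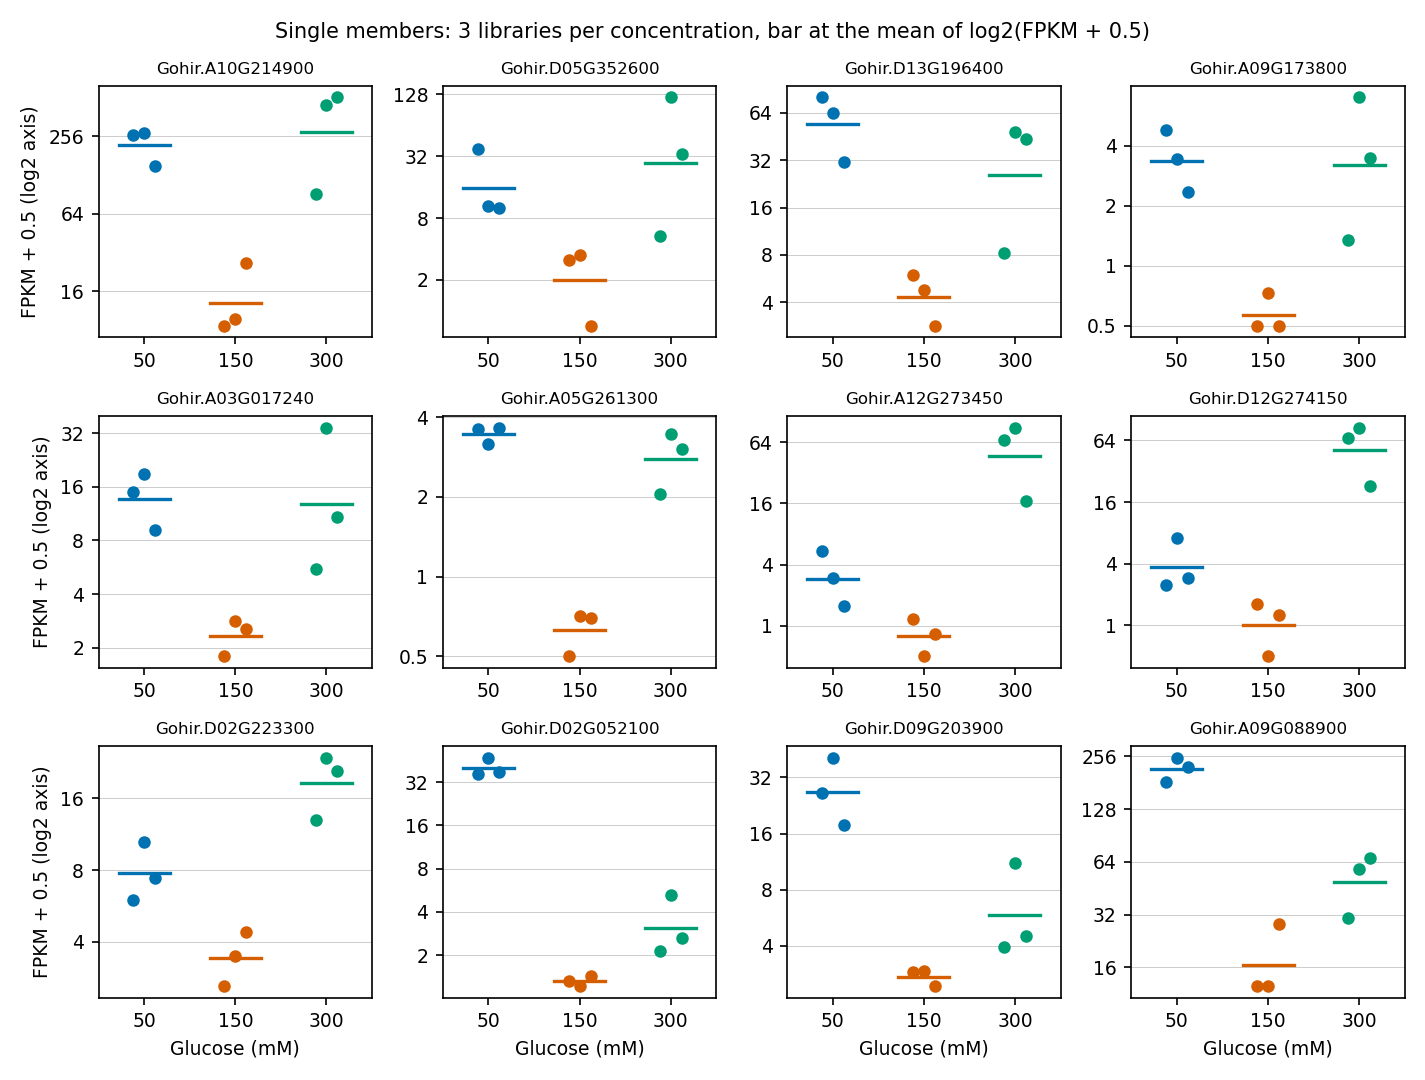
FPKM + 0.5 on a log2 axis in each of the 3 libraries per glucose concentration (replicates 1 to 3 from left to right), with a bar at the mean of the log2 values, for the 6 deepest troughs, 3 members higher and 3 members lower at 300 than at 50 mM. The vertical axis differs between panels. The 50 and 300 mM points lie above the 150 mM points in each panel, by the rule.

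Of the 6 most abundant members, Gohir.A10G214900.v2.1 is described above, and the other 5 had depths of 1.01 to 1.74. Gohir.A01G189900.v2.1 had an FPKM of 1031, 1163 and 1507 at 50 mM, 384, 374 and 425 at 150 mM, and 683, 1190.3 and 619 at 300 mM. Its 150 mM libraries lay close together while those at 300 mM spread from 619 to 1190.3, and 300 against 50 mM did not pass (log2 change -0.61, SE 0.244, limma adjusted p = 0.0813), although it passed without replicate 2 at 300 mM (-0.91, limma adjusted p = 0.00826). Gohir.D13G175100.v2.1 had 218, 385 and 201 at 50 mM, 88.4, 98.5 and 159 at 150 mM, and 335, 836 and 487 at 300 mM. Its log2 change of 1.00 from 50 to 300 mM did not pass (SE 0.366, limma adjusted p = 0.0620), and it passed with the replicate block (limma adjusted p = 0.0457) and without replicate 1 at 300 mM (1.31, limma adjusted p = 0.0268). Gohir.D02G143300.v2.1 had 395, 535 and 348 at 50 mM, 63.2, 60.8 and 35.6 at 150 mM, and 83.0, 188 and 335 at 300 mM. Each of its 300 mM libraries was below each at 50 mM, and the difference fell just short of the threshold (log2 change -1.27, SE 0.439, limma adjusted p = 0.0516).

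For 2 further abundant members the 150 mM group came close to the others. Gohir.D04G143600.v2.1 had 229, 222 and 167 at 50 mM, 47.9, 118 and 133 at 150 mM, and 187, 368 and 306 at 300 mM. Replicate 1 at 150 mM was far below the other 2, and without it the depth was 0.70 in place of 1.16. Gohir.A01G209100.v2.1 had 230.1, 262 and 205 at 50 mM, 67.0, 87.2 and 100.3 at 150 mM, and 100.5, 252 and 199 at 300 mM. The highest library at 150 mM and the lowest at 300 mM of this gene were almost level.

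The rule sets no direct limit on the difference between 300 and 50 mM, although it used the same libraries. It does shut out genes that move in the same direction at both steps. The comparison of 300 with 50 mM was tested with limma over 50988 genes, all 171 members among them, with Benjamini-Hochberg adjustment. Of the members 29 (17.0%) changed, 22 lower and 7 higher at 300 than at 50 mM. Among all tested genes 32.3% changed, 16.3% lower and 16% higher. The members stood below these shares, at 12.9% lower and 4.09% higher, and the difference in shares was not tested. The remaining 142 did not pass, which does not show that they returned to the same level, and the members had the larger spread within groups, as given above. At an unadjusted p under 0.05 there were 49 members (28.7%), against 43.4% of all tested genes. The 50 and 300 mM libraries did not overlap in 34 members (19.9%), against 46.3% of tested genes. All tested genes are not a like baseline for any of these shares. They include genes that move in the same direction at both steps, which cannot be members.

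Most members had a lower mean at 300 than at 50 mM, and this too moved with replicate 1. The mean was lower at 300 mM in 123 of 171 members (71.9%), against 49.4% of tested genes, with a median log2 difference of -0.33 against 0.01. Compared with the 50 mM mean, 151 of the 171 members were lower in replicate 1, 84 in replicate 2 and 107 in replicate 3. Among Gohir IDs with a mean FPKM of at least 2 at 50 or 300 mM the shares were 49.9%, 50.6% and 49.7%. In replicate 2 the members were thus near the share of those IDs. Without replicate 1, 92 were lower and 79 higher, with a median of -0.09. Scaling each library to its recovered reads moved the median of all tested genes to 0.13 and of the members to -0.21, so the members were lower by 0.33 or 0.34 relative to all tested genes under each scaling. With the 171 members kept and replicate 1 at 300 mM left out of the fit, 15 were lower and 12 higher. Left out in the same way, replicates 2 and 3 at 300 mM gave 32 and 24 lower and 3 higher each. Replicates 1 and 2 at 50 mM gave 13 lower each, and replicate 3 at 50 mM gave 3 higher. The share of all tested genes called in these fits was not computed, so the moves are not read as a trait of the members.

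**Figure D5:**
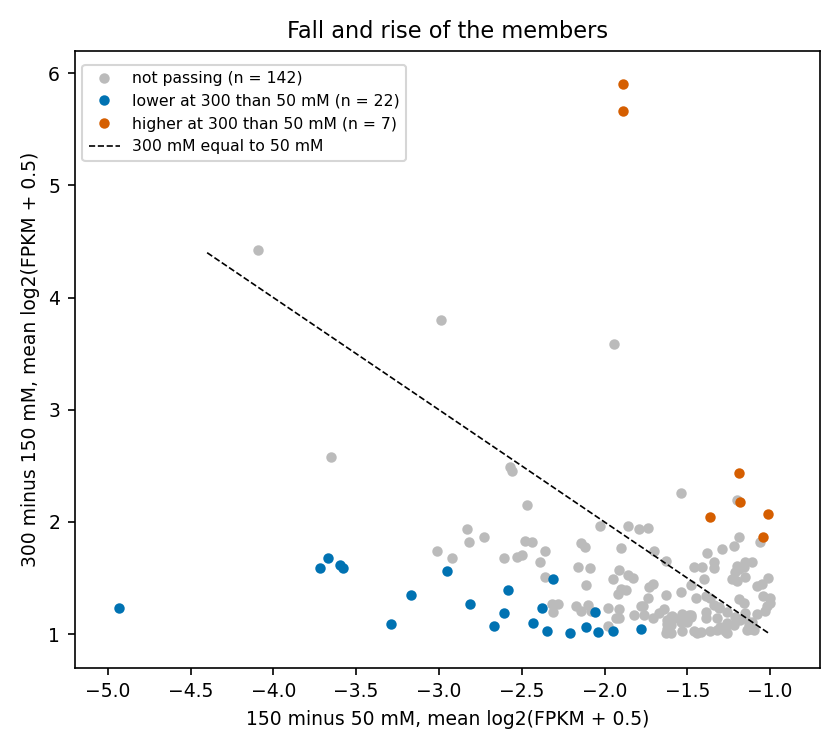
Each point is 1 of the 171 members, with the difference of mean log2(FPKM + 0.5) from 50 to 150 mM on the horizontal axis and from 150 to 300 mM on the vertical axis. The dashed line marks equal means at 50 and 300 mM, and colour marks the 22 members lower and 7 higher at 300 than at 50 mM by limma. Points crowd toward the corner set by the rule, and 2 of the higher members stand at rises above 5.

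The 22 members lower at 300 mM had rises smaller than their falls, as any member with a lower mean at 300 than at 50 mM must. Their log2 change from 50 to 300 mM was -3.71 to -0.74, with a median of -1.36, and 18 of them fell by at least 1. The 50 and 300 mM libraries did not overlap in 18 of the 22, which were picked by a test on these same groups. Gohir.D02G052100.v2.1 changed most, with 36.1, 46.9 and 37.1 at 50 mM, 0.826, 0.710 and 0.920 at 150 mM, and 1.63, 4.74 and 2.12 at 300 mM. It remained far below its 50 mM libraries in each 300 mM library (log2 change -3.71, SE 0.289, limma adjusted p = 5.96e-05), and the rise from 150 mM was to a low level.

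Of the next 3, the rises differed in how many libraries carried them. Gohir.D09G203900.v2.1 had 26.0, 40.3 and 17.3 at 50 mM, 2.39, 2.43 and 1.92 at 150 mM, and 3.43, 10.7 and 3.99 at 300 mM (300 against 50 mM: log2 change -2.20, SE 0.394, limma adjusted p = 0.00278). Replicate 2 carried most of its rise, and without that library the depth was 0.62 in place of 1.09. Gohir.A09G088900.v2.1 had 183, 250.2 and 221 at 50 mM, 11.95, 12.08 and 27.69 at 150 mM, and 30.2, 57.4 and 67.2 at 300 mM (log2 change -2.13, SE 0.359, limma adjusted p = 0.00206). Its highest library at 150 mM was nearly level with its lowest at 300 mM. Gohir.D02G080800.v2.1 had 163, 109 and 116 at 50 mM, 10.04, 9.935 and 10.56 at 150 mM, and 13.1, 37.4 and 64.3 at 300 mM (log2 change -1.99, SE 0.450, limma adjusted p = 0.00874). Its 150 mM libraries were nearly equal, while those at 300 mM ran from 13.1 to 64.3. Replicate 1 was the lowest 300 mM library in 19 of the 22.

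The 7 members higher at 300 mM had coding lengths of 135 to 738 bases, with a median of 291, and 5 of them were under 500. Their log2 changes from 50 to 300 mM were 0.68 to 4.01. The libraries of the 2 groups did not overlap in any of the 7, which were picked by a test on these same groups. The largest were Gohir.A12G273450.v2.1, of 153 bases, and Gohir.D12G274150.v2.1, of 135 bases. The former had 4.89, 2.43 and 1.06 at 50 mM, 0.664, 0 and 0.336 at 150 mM, and 67.6, 88.9 and 16.4 at 300 mM. The latter had 1.98, 6.68 and 2.41, then 1.13, 0 and 0.762, and then 67.4, 84.9 and 22.6. The former had 24 reads in all at 50 mM, 3 at 150 mM and 523 at 300 mM, and the latter 28, 5 and 467. Their levels at 50 mM thus also rest on few reads. In both, replicate 3 was the lowest 300 mM library where replicate 1 was in most members. The change passed for Gohir.A12G273450.v2.1 (log2 4.01, SE 0.639, limma adjusted p = 0.00158), but not with limma-voom on recovered reads (4.30, limma adjusted p = 0.0659). For Gohir.D12G274150.v2.1 it passed under both (log2 3.78, SE 0.599, limma adjusted p = 0.00154, and 0.0220 with limma-voom). Whether these 2 genes share reads was not tested.

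Other members higher at 300 mM rose less. Gohir.D02G223300.v2.1 had 5.511, 10.03 and 6.903 at 50 mM, 2.096, 2.999 and 3.890 at 150 mM, and 12.5, 23.2 and 20.3 at 300 mM (log2 change 1.26, SE 0.284, limma adjusted p = 0.00857). Each 300 mM library exceeded each of the others. Gohir.D10G013300.v2.1 had 2.94, 1.38 and 0.944 at 50 mM, 0.442, 0.791 and 0.447 at 150 mM, and 3.04, 4.89 and 3.92 at 300 mM. Its highest 50 mM library nearly met its lowest at 300 mM, and the change (log2 1.06, SE 0.320, limma adjusted p = 0.0312) did not pass without replicate 2 or 3 at 50 mM (0.98, limma adjusted p = 0.0909, and 0.78, adjusted p = 0.105) or replicate 2 or 3 at 300 mM (0.91, adjusted p = 0.0978, and 1.05, adjusted p = 0.0657). Without replicate 1 at 50 mM its depth was 0.65 in place of 1.01.

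Means at 300 and 50 mM were close in many members, though less often than in other genes of that level. Over all 171 members, those called changed included, the difference of means was under 0.5 log2 units in 93 (54.4%) and under 1 in 141 (82.5%). The shares were 64.6% and 85.6% of the 42453 Gohir IDs above the same level. The 3 closest were Gohir.D11G092200.v2.1, Gohir.A01G167300.v2.1 and Gohir.A04G139200.v2.1. Gohir.A01G167300.v2.1 had 13.7, 19.2 and 13.2 at 50 mM, 6.01, 5.83 and 7.96 at 150 mM, and 11.9, 20.2 and 14.0 at 300 mM. Its 50 and 300 mM libraries covered nearly the same range. For Gohir.A04G139200.v2.1 the values were 30.1, 29.0 and 16.2 at 50 mM, 5.77, 7.89 and 9.20 at 150 mM, and 16.5, 34.0 and 26.3 at 300 mM. Gohir.D11G092200.v2.1 had 7.98, 4.88 and 4.43, then 1.32, 3.22 and 2.77, and then 3.91, 5.15 and 8.52. The closeness of these 3 is how they were picked.

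At the limit of the rule, members and non-members differed little. Gohir.A13G026600.v2.1 and Gohir.A09G007400.v2.1 were just inside, with falls of -1.003 and -1.004 log2 units. Gohir.A11G016200.v2.1 missed by its fall of -0.996, and Gohir.D02G020900.v2.1 by its rise of 0.996. The FPKM of Gohir.A11G016200.v2.1 was 19.5, 23.2 and 20.9 at 50 mM, 8.04, 12.1 and 11.4 at 150 mM, and 14.8, 36.9 and 19.5 at 300 mM. With limits of 0.75 or 1.5 log2 units in place of 1 the rule found 311 or 41 genes.

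Members came from 26 chromosomes of both subgenomes. There were 79 on A and 91 on D chromosomes, which is 0.379% of 20862 and 0.423% of 21513 Gohir IDs with a mean FPKM of at least 2 at 50 or 300 mM, and 1 was on a scaffold. Chromosomes with 10 or more members numbered 6 and held 73 of the 170. Chromosome A05 had the most, 16 of 2702 (0.592%), and D02 the highest share, 14 of 1577 (0.888%), against 0.401% over all chromosomes. At the low end A11 had 1 of 2153. These shares were not tested.

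Many members were short genes. The coding length recovered from the values had a median of 678 bases in members and 1062 in the Gohir IDs above the same level, and it was under 500 bases in 33.9% of members against 19.0%. Short genes have fewer reads at the same FPKM, and their part in the choice of members was not tested. The number in the ID did not end in 00 in 8.24% of members, against 10.4%.

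Some members lay next to each other in ID order. There were 3 pairs with adjacent IDs, and 24 members (14.1%) had another member within 10 IDs. The share in other sets of Gohir IDs of this size was not computed, so no clustering is read from these counts. The pair Gohir.A03G030000.v2.1 and Gohir.A03G030100.v2.1 shared a length of 549 bases. The former had 4.19, 5.51 and 6.03 at 50 mM, 0.741, 3.48 and 3.75 at 150 mM, and 5.56, 6.80 and 7.12 at 300 mM, and the latter 24.5, 25.1 and 33.8, then 7.22, 11.0 and 13.2, and then 19.1, 26.9 and 35.9. In both, replicate 1 was the lowest 150 mM library, and without it the depth of the former was 0.47 in place of 1.04. Gohir.D02G223200.v2.1 and Gohir.D02G223300.v2.1 shared 291 bases. They differed at 300 mM, where Gohir.D02G223200.v2.1 had 2.06, 1.76 and 2.07 after 2.94, 4.92 and 1.87 at 50 mM (log2 change -0.52, SE 0.400, limma adjusted p = 0.347) and its neighbour was higher. Reads of neighbours of equal length may be shared between them, which was not tested.

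In the third adjacent pair, 1 gene had the same coding length as a member on the D chromosome of the same number. Gohir.A05G158400.v2.1, of 432 bases, had 3.34, 3.56 and 4.15 at 50 mM, 0.824, 0.505 and 0.834 at 150 mM, and 1.85, 1.78 and 2.43 at 300 mM. Gohir.A05G158500.v2.1, of 966 bases, had 7.19, 6.26 and 5.68, then 0.631, 0.847 and 0.479, and then 1.35, 4.98 and 2.18. On chromosome D05, Gohir.D05G161100.v2.1 had the same length of 966 bases and 4.15, 4.34 and 4.38, then 0.631, 0.565 and 0.639, and then 0.880, 2.65 and 2.38. This last gene was added to the account after its values were seen. All 3 were among the 22 members lower at 300 than at 50 mM, with log2 changes of -0.74, -1.19 and -1.04 (limma adjusted p = 0.0169, 0.0254 and 0.0203). The first did not pass with limma-voom on recovered reads (limma adjusted p = 0.0976), without replicate 3 at 50 mM (0.0677) or without replicate 2 at 300 mM (0.0518). The second did not pass without any single library of the 50 mM group (limma adjusted p = 0.0524 to 0.0817) or without replicate 1 or 3 at 300 mM (0.0684 and 0.0652).

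There were 6 pairs of members on the A and the D chromosome of the same number with equal coding length, the genes of 966 bases among them. How many such pairs other sets of Gohir IDs hold was not computed. The files do not say which A and D genes are copies of each other, so equal length and chromosome number are all that joins them. Gohir.A08G043100.v2.1 and Gohir.D08G052900.v2.1, of 990 bases, were the most abundant of the 3 deepest pairs. The A gene had 64.5, 48.1 and 27.5 at 50 mM, 12.5, 10.2 and 14.9 at 150 mM, and 29.6, 86.5 and 45.9 at 300 mM. The D gene had 78.5, 64.6 and 48.9, then 23.8, 23.1 and 30.0, and then 58.0, 141 and 80.9. Library by library they followed the same order at 50, 150 and 300 mM.

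The other 2 of the deepest pairs were less abundant. Gohir.A08G072800.v2.1 and Gohir.D08G082200.v2.1, of 828 bases, had 5.10, 4.04 and 3.93 and 7.36, 10.3 and 6.62 at 50 mM. At 150 mM they had 0.184, 0.725 and 0.497 and 1.96, 2.04 and 0.746, and at 300 mM 0.785, 5.62 and 1.94 and 3.20, 8.77 and 5.69. Replicate 1 was lowest and replicate 2 highest at 300 mM in both, and without replicate 2 the depth of the A gene was 0.91 in place of 1.51. Gohir.A13G003100.v2.1 and Gohir.D13G010000.v2.1, of 636 bases, had 1.97 each in replicate 1 at 300 mM and 6.92 and 4.26 in replicate 2. The A gene of that pair was above each of its 50 mM libraries in replicate 2, and the D gene was not.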

How the data were processed

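RNA was sequenced from ovules of 3 groups of 3 libraries, assigned by the glucose concentration in the labels. The authors deposited FPKM values, 1 table per library. HISAT2 and featureCounts 1.5.0-p3 are named in the submitters' processing notes. The IDs of the members end in v2.1. Beyond that suffix, the sources used do not give the build and gene models. Whether strand was counted and what library total entered the FPKM is not given either. The members and gene lists were chosen with earlier results of these data known.

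Whole reads and gene lengths were recovered from whole-number ratios between the deposited FPKM values. All 68279 rows above 0 gave whole reads within a tolerance of 0.001. Because 95.5% of the lengths of Gohir IDs with at least 100 reads were divisible by 3, the term coding length is used. Per kilobase of length, 1 read was worth an FPKM of 0.05 to 0.0545. Counting intervals leave out the spread between libraries. No pair of libraries of a group agreed within sampling noise (chi-square per degree of freedom 4.44 to 17.1).

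The planned count test was not used, since the values are FPKM. Instead log2(FPKM + 0.5) was fitted with limma 3.58.1 (mean trend, robust variance, statmod 1.5.0, R 4.3.3) for genes that reached an FPKM of 1 in 3 or more libraries. The fit took all 9 libraries and had no replicate block. Tests were two-sided with Benjamini-Hochberg adjustment over 50988 genes and a threshold of 0.05. Fold changes on this scale are understated for low genes. Both the fit and the rule were tested on simulated data. The simulated troughs were deeper than those of most members, genes with few reads were left unchanged, and no library stood apart. The simulation therefore does not show how the fit and the rule perform on these members.

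Genes named are, by rule, the 6 deepest and the 6 most abundant members, the 4 with the largest change in each direction from 50 to 300 mM, the 3 closest, those next to the limit, the longest runs of adjacent IDs and the 3 deepest equal-length pairs. Alternatives changed the pseudocount, scaling, filter, limits, libraries and test.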

Additional observations from a re-analysis of the deposited data

How the results depend on the processing

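The list held 171 members, 7 of them higher and 22 lower at 300 than at 50 mM. A pseudocount of 0.1 gave 234 members, with 35 lower, and a pseudocount of 1 gave 112, with 4 higher and 13 lower. Limits of 1.5 log2 units gave 41 members, 2 higher and 5 lower, and limits of 0.75 gave 311, 13 higher and 51 lower. A minimum mean FPKM of 5 gave 109 members, 4 higher. With no requirement on the order of libraries there were 305, 57 of them lower. These counts follow from the limits themselves. Scaling to recovered reads, by upper quartiles or by median ratios gave 202, 195 and 181 members, which kept 162, 171 and 171 of the 171. With 1 library left out at a time there were 127 to 474 members, 3 to 12 higher and 13 to 103 lower. With replicate 1 at 300 mM left out and scaling to recovered reads there were 511, 14 higher and 105 lower. At a threshold of 0.01, 3 members were higher and 9 lower. The share of all tested genes called was not computed under these alternatives.

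The correlations of deviations from the group means ran from -0.275 to 0.102 for libraries of the same replicate number. For different numbers they ran from -0.246 to 0.237. Libraries of the same number were thus no more alike, and whether any libraries shared a batch was not tested. With the replicate block 6 members were higher and 20 lower, limma-voom on recovered reads gave 5 and 20, and a fit without the 150 mM libraries gave 6 and 20. The counts for the list of 171 held fixed were chosen after seeing the data. No member named by the rule reversed its direction in a called change under the alternatives run, which were not computed for Gohir.D05G161100.v2.1 by itself. At this depth 15 members had fewer than 10 reads at 150 mM, which limits how well their depth is known.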
